A study of Mus musculus with 4 samples.

Results

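The genes described here are 10 transcripts by which macrophages are recognised at the cell surface or kept alive: the receptors for immunoglobulin G Fcgr1, Fcgr2b, Fcgr3 and Fcgr4, the surface and lysosomal markers Adgre1 and Cd68, the growth factor receptor Csf1r and its ligand Csf1, and the chemokine receptors Cx3cr1 and Ccr2. They were taken by gene symbol from the deposited tables, which name 13067 genes in all. The cells were mouse macrophages of strain C57BL/6, grown from bone marrow with macrophage colony-stimulating factor for 7 days in both genotypes. WT cells carried the genotype Mettl3fl/fl and KO cells the genotype LysM-cre, Mettl3fl/fl, in which Cre recombinase acts from the lysozyme 2 locus of myeloid cells, so both genotypes carried the floxed alleles. Each genotype had 1 library of RNA precipitated with an antibody against N6-methyladenosine (m6A), called IP, and 1 library of the RNA before precipitation, called input. With 1 library per group no difference has a replicate check, and the sources used here give neither the number of animals nor any pooling. Read totals were not analysed here, so the depth behind each value is unknown.

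Fc gamma receptors bind the constant part of immunoglobulin G. Fcgr1 encodes the high affinity receptor, Fcgr3 and Fcgr4 encode activating receptors that signal through the common gamma chain, and Fcgr2b encodes the inhibitory receptor that opposes them. Csf1, the macrophage colony-stimulating factor, acts through the tyrosine kinase encoded by Csf1r and is needed for the survival of most macrophages. Adgre1 encodes the F4/80 antigen and Cd68 the lysosomal glycoprotein macrosialin. Ccr2 brings monocytes out of the bone marrow, and Cx3cr1 is the receptor for fractalkine. METTL3 is the catalytic subunit of the enzyme that writes m6A on messenger RNA, mostly around stop codons and in 3′ untranslated regions (3′ UTRs).

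By name, the WT list held 11 peaks in 7 of the 10 genes and the KO list 14 peaks in 9 genes. The KO list was also longer as a whole, with 21031 peaks against 16709 in the WT list. A higher KO count, by name or by position, is therefore not particular to these genes. Fcgr4 was named in no table, and Adgre1 and Cd68 were named in the KO list and not in the WT list. A peak is a stretch of exons where IP reads exceed input reads, and its enrichment, the ratio of IP over input, and its p are the authors' own values. Of the named peaks, 9 in WT and 12 in KO were annotated to a 3′ UTR, beside 59.6% and 64.1% of all peaks in the lists. A false discovery rate above 0.05 was found for 2 of the 11 WT peaks and 2 of the 14 KO peaks, beside 29.8% and 35.1% of all peaks. Of the WT peaks, 9 overlapped a KO peak by 1 exonic base or more, beside 73.4% of all WT peaks, and 9 of the KO peaks overlapped a WT peak, beside 61.6% of all KO peaks.

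The name of a peak and the gene under it differed for several of these transcripts. Of the named peaks, 9 of 11 in WT and 9 of 14 in KO overlapped the RefSeq extent of the gene they were named for, beside 84.2% and 82.1% of all peaks whose gene is in RefSeq (build GRCm38, the same as mm10). In the other direction, 5 peaks of each list lay in the extent of a member and carried another gene's name. Counted by position, 14 WT peaks lay in 8 of the genes and 14 KO peaks in all 10. Adgre1 and Cd68 were the genes without a WT peak by that count as well. Each peak below is therefore given with its position, its name in the lists where that differs, and the gene that RefSeq has there.

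**Figure D1:**
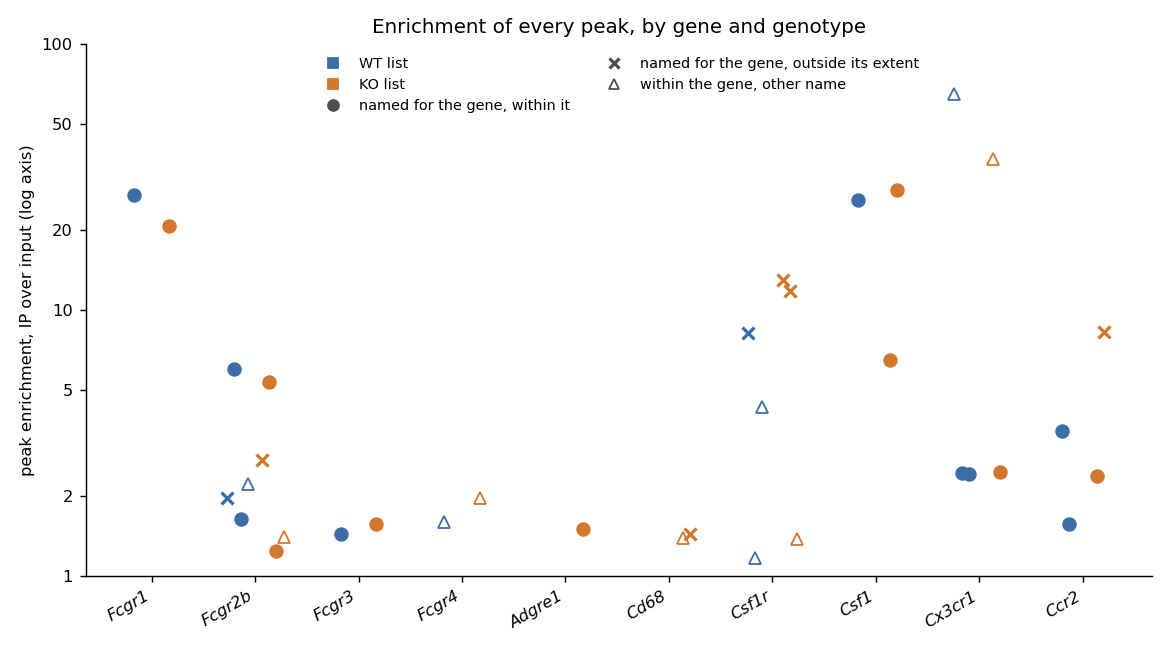
Enrichment of IP over input (log axis) of every peak named for a member or lying in its extent, with WT peaks in blue and KO peaks in orange. Circles are peaks named for the gene and within it, crosses are peaks named for the gene that lie outside its RefSeq extent, and open triangles are peaks within the gene that carry another name; the highest points, at 65.0 and 37.0, are the triangles of Cx3cr1.

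Fcgr1, the high affinity receptor, carried 1 strong peak in each genotype. In WT it ran from chr3:96282909-96286032, over 1935 exonic bases, with an enrichment of 27.0. In KO it ran from chr3:96282909-96285942, over 1845 exonic bases, with an enrichment of 20.6. Both start at the last base of the gene, which lies on the minus strand, and their longer block of 1711 bases is the same in both genotypes. Within its own list each stood among the strongest peaks, at the 96.6th percentile of enrichment in WT and the 97.1st in KO. The authors' deposited table, which compares peaks between genotypes, gives this one a log2 ratio (KO enrichment over WT) of -0.70 and a false discovery rate of 3.16e-54. The log2 ratio of the enrichments in the peak lists is -0.39, so the table's ratio does not follow from them, and how it was computed is not stated in the labels. The p-values in that table compare the reads of these libraries and not the genotypes.

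Fcgr2b, the inhibitory receptor, carried peaks along its whole length. Its strongest peak lay at the 3′ end, at chr1:170959427-170963375 in WT with an enrichment of 5.99 and at chr1:170959487-170961382 in KO with an enrichment of 5.37. It reached 1131 bases past the RefSeq end of the gene in WT and 1071 in KO, although the authors annotated it as 3′ UTR. A weaker 3′ UTR peak starting at 170958617 had an enrichment of 1.97 in WT and 2.73 in KO, and RefSeq has no gene at that position. The 3′ peak at chr1:170959487-170961472 stood at -0.31 in the authors' deposited table, the smallest lower ratio among the members, and at -0.16 by its listed enrichments.

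Inside the gene the Fcgr2b peaks of the genotypes lay at different exons. The WT list had a peak at exon 4 of 8 (chr1:170965682-170966633) with an enrichment of 1.64, and no KO peak overlapped it. The KO list had one at exon 3 of 8 (chr1:170968212-170969357) with an enrichment of 1.24 and a false discovery rate of 0.0589. The exon 4 peak stood at -0.41 in the authors' deposited table. The extracellular parts of Fcgr2b and Fcgr3 are close copies of each other, and the sources used here do not say how reads that match both were counted, so the exon peaks of these genes are uncertain.

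At its 5′ end Fcgr2b had a peak in both genotypes that the lists name Gm38204. It ended at base 170976063 in WT, with an enrichment of 2.22, and at base 170976093 in KO, with an enrichment of 1.40. RefSeq places the start of Fcgr2b at base 170976071 of chromosome 1, so the KO peak reached past it. The 30 bases by which the KO peak was longer are shown because they hold GGACT, the commonest form of the m6A consensus. They are chr1:170976064-170976093, read on the minus strand from RefSeq (GRCm38.p6) with GGACT in capitals.
Fcgr2b 5′ end: tttGGACTtcacaattttgtctgttctctg
GGACT begins 19 bases before the RefSeq start, and the stretch runs from 22 bases before it to 8 bases after it. The same 30-base window held GGACT on the strand of the gene in 2.77% of 32817 RefSeq promoter windows, and on either strand in 5.52%. Of 9 windows of the members, which cover 8 of the 10 genes, 1 held it on the strand of the gene and 2 on either strand. The 1 on the strand of the gene is the Fcgr2b stretch itself, shown because it holds GGACT. The member count can therefore not be read against the share of all windows. Whether these bases are transcribed in these cells was not tested.

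Fcgr3 and Fcgr4, the activating receptors, each carried 1 short, weak peak at the very end of the transcript. The Fcgr3 peak was identical in position in both genotypes, chr1:171051174-171051503, with an enrichment of 1.44 in WT and 1.56 in KO. It stood at the 7.5th percentile of the WT list and the 10.8th of the KO list. The Fcgr4 peak, which the lists name Gm26110, a small nuclear RNA gene, ended at the last base of Fcgr4. It covered 150 bases in WT with an enrichment of 1.59 (chr1:171029612-171029761) and 180 bases in KO with an enrichment of 1.97 (chr1:171029582-171029761). Neither gene had a differential peak listed, and peaks that were tested and not listed are unknown.

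**Figure D2:**
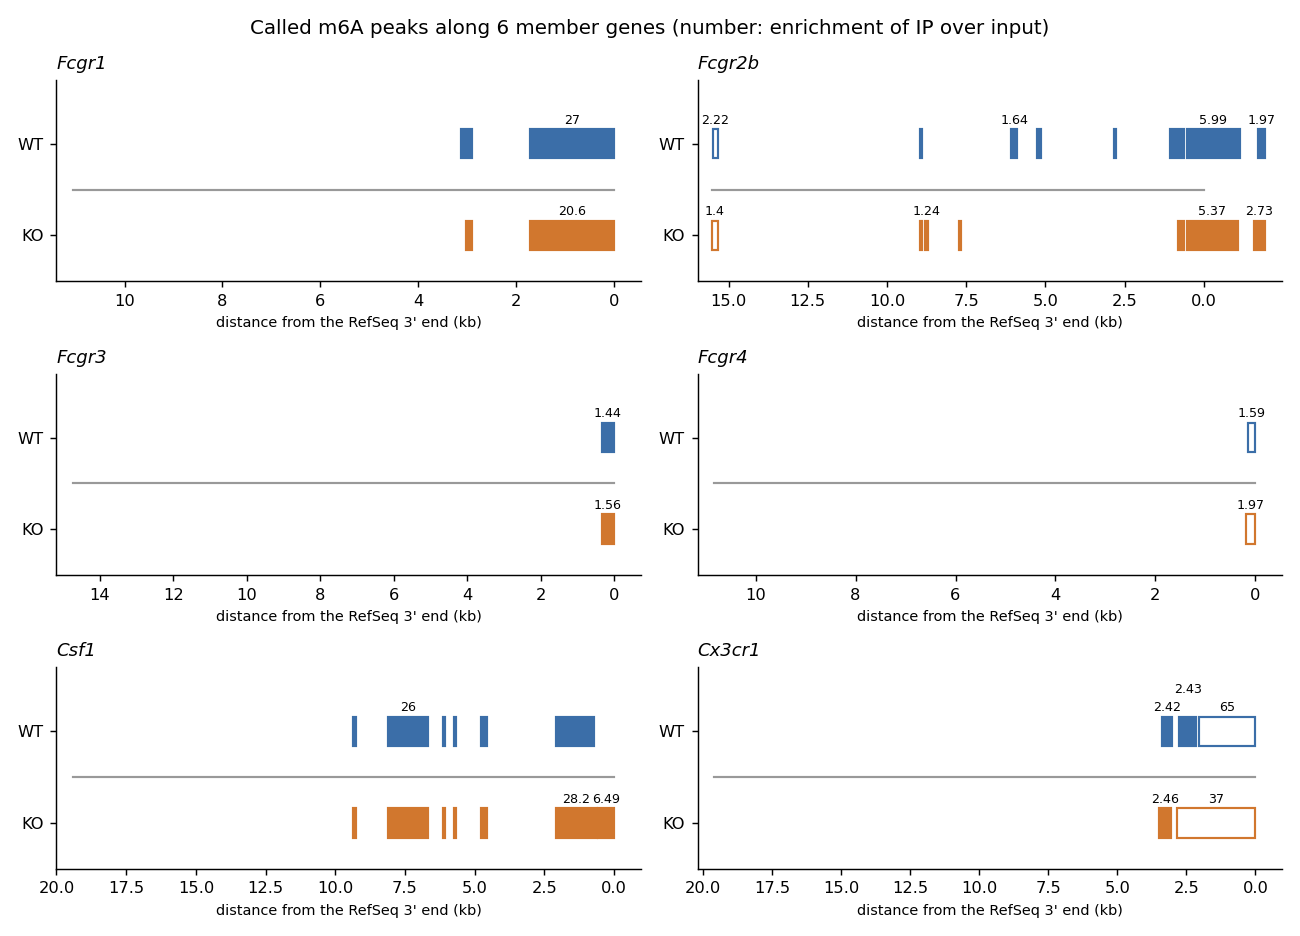
Called peaks along Fcgr1, Fcgr2b, Fcgr3, Fcgr4, Csf1 and Cx3cr1, drawn by distance from the RefSeq 3′ end in kilobases, with 3′ to the right and the grey line marking the RefSeq extent. Filled blocks are peaks named for the gene, open blocks carry another name, and the numbers are enrichments; the peaks of Fcgr3 (1.44 and 1.56) and Fcgr4 (1.59 and 1.97) sit at the end of the gene, and those of Fcgr2b lie along its whole length.

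Adgre1 and Cd68, the most abundant of the members with a listed level, had peaks in KO and none in WT. The Adgre1 peak covered the last bases of the 3′ UTR, chr17:57483347-57483527, with an enrichment of 1.50. Its differential peak (chr17:57483407-57483527) stood at 0.54 in the authors' deposited table, and it overlapped the KO peak and no WT peak. The peak named Cd68 in the KO list (chr11:69666936-69667056, enrichment 1.44) lay 766 bases outside Cd68, at the 3′ end of Eif4a1, which encodes a translation initiation helicase. The ratio of 0.49 that the authors' deposited table gives for Cd68 belongs to that position. Cd68 itself had a KO peak at its 3′ end, chr11:69664213-69664392, with an enrichment of 1.39, which the list names Mpdu1.

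Csf1r showed the same shift of names. Its named peaks, with an enrichment of 8.16 in WT (chr18:61078938-61085061) and of 13.0 and 11.8 in KO (chr18:61079651-61084043 and chr18:61084133-61085061), lay at least 20511 bases outside Csf1r. They lay in Pdgfrb, the neighbouring gene for a platelet-derived growth factor receptor and a marker of stromal cells. The false discovery rate was 0.104 for the WT peak and 0.0105 and 0.0195 for the KO peaks. Within Csf1r, the WT list had a peak of 300 bases near the 3′ end (chr18:61130594-61130893) with an enrichment of 1.17, the 0.7th percentile of that list. A WT peak with an enrichment of 4.31 (chr18:61131102-61131551) had 38 of its 450 bases in Csf1r, and a KO peak with an enrichment of 1.38 (chr18:61130564-61131461) had 576 of 898. Both reached into Hmgxb3, whose RefSeq extent lies at higher coordinates than Csf1r (from base 61131277), and the lists name all 3 peaks Mir6983. The differential peak there (chr18:61130953-61131461) stood at 0.21 in the authors' deposited table. It had 187 of its 509 bases in Csf1r, so the gene it belongs to cannot be told from position. That ratio, higher in KO, is opposite in direction to the listed enrichments. Every WT peak it overlapped, such as the one at 4.31, was more enriched than every KO peak it overlapped, such as that at 1.38. The WT peak at 1.17 lay outside it.

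Csf1, the ligand, was weakly expressed and strongly enriched. Its main peak joined 6 blocks of exons over 3282 exonic bases in WT (chr3:107741764-107750415) and 3372 in KO (chr3:107741674-107750415), with enrichments of 26.0 and 28.2. A second KO peak covered the last 568 bases of the gene, chr3:107741048-107741615, with an enrichment of 6.49, and no WT peak overlapped it. Its false discovery rate was 0.0347, beside 1e-104 for the main KO peak. The authors' deposited table split the main peak into a 3′ UTR part at 0.42 (chr3:107741734-107745764) and a part at exon 5 of 9 at 0.65 (chr3:107748141-107750326). Both ratios describe 1 peak of the WT list, and the log2 ratio of its listed enrichments is 0.12. Each of these peaks also overlapped the extent of the predicted gene Gm40121. Strand was ignored, so the part of Gm40121 in these values cannot be told from position.

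The strongest peak of the whole group lay in the 3′ UTR of Cx3cr1 and was named for another gene. In WT 2047 of its 2059 exonic bases lay at the 3′ end of Cx3cr1, and in KO 2823 of 2835. The remaining 12 bases lay in Wdr48, far off on the same chromosome, and the lists name the peak Wdr48 (chr9:119901616-120050729 in WT, chr9:119901616-120051505 in KO). Its enrichment was 65.0 in WT and 37.0 in KO, at the 99.4th and 99.2nd percentiles of the lists. No differential peak was listed at this position. The peaks named Cx3cr1 were weaker, at 2.43 (chr9:120050819-120051445) and 2.42 (chr9:120051713-120052071) in WT and 2.46 (chr9:120051743-120052161) in KO. The WT peak at 2.43 overlapped the KO peak named Wdr48, which was longer, so all 3 WT peaks in Cx3cr1 overlapped a KO peak.

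Ccr2 had 1 peak in both genotypes and 1 further peak in each. The shared peak lay at chr9:124106066-124106993 in WT with an enrichment of 3.49 and at chr9:124106156-124106814 in KO with an enrichment of 2.37. It stood at -0.54 in the authors' deposited table, and at -0.56 by its listed enrichments. The further WT peak (chr9:124107173-124107352, enrichment 1.57) had a false discovery rate of 0.215. The further KO peak (chr9:124113258-124113557, enrichment 8.27) had one of 0.107 and lay 4118 bases past the RefSeq end of Ccr2, where RefSeq has no gene.

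Differential peaks named for the members numbered 8, in 6 of the genes, with 4 lower in KO and 4 higher by the authors' deposited table. All 8 had a false discovery rate under 0.05, beside 79.6% of the table. Among all 6050 differential peaks 69.6% were lower and 30.4% higher. Fcgr1, Fcgr2b and Ccr2 had lower peaks, and Csf1, Adgre1 and the peak named Cd68 higher ones, so no gene had both. An absolute log2 ratio of at least 0.5 was reached by 4 of the 8, beside 59.9% of all. In the extent of their gene lay 7 of the 8, beside 82.8% of all, and without the peak in Eif4a1 the members had 4 lower and 3 higher. Set against the median of the authors' deposited table, -0.40, 3 peaks were lower, beside 50.0% of all, and 5 higher, since the 3′ peak of Fcgr2b changed side.

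**Figure D3:**
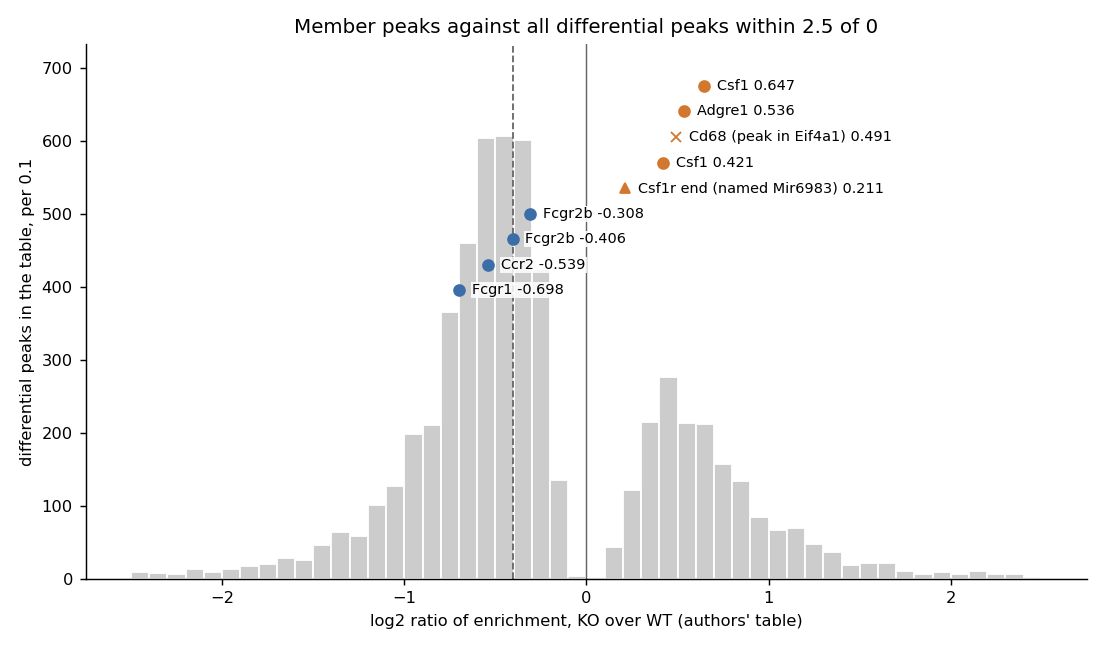
Log2 ratios of KO over WT enrichment in the authors' deposited table: the grey histogram counts all differential peaks within 2.5 of 0 per 0.1, and the dashed line is the table's median of -0.40. Points mark the peaks named for the members or lying in them (cross: peak in Eif4a1; triangle: peak named Mir6983), blue for lower and orange for higher in KO, and their height carries no value; they run from -0.70 for Fcgr1 to 0.65 for Csf1.

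Position within the transcript varied among these peaks. Of the 14 KO peaks in the members' extents 7 reached to within 10 bases of the RefSeq 3′ end of the gene, and of the 14 WT peaks 4 did. In the whole lists, 29.5% of KO and 23.7% of WT 3′ UTR peaks within their assigned gene did so. These shares cover a narrower set than the member counts, which take peaks of any transcript part and under any name. The member counts and these shares are therefore not a like comparison. Those of Fcgr1 and Cx3cr1 were long and highly enriched, and the KO end peak of Csf1 lay between these and the rest in length and enrichment (568 bases, 6.49). The end peaks of Fcgr3, Fcgr4, Adgre1 and Cd68 covered 150 to 330 bases with enrichments of 1.44 and 1.59 in WT and of 1.39 to 1.97 in KO. Over the whole of the authors' deposited table, differential 3′ UTR peaks that reached the gene's end were lower in KO in 36.0% of 776 cases, against 74.5% of 2446 other such peaks. The differential peaks of Fcgr1 and Adgre1 both reached the end, and they stood on opposite sides of 0.

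Input levels were listed for the 6 members with a differential peak under their name. They are in FPKM, fragments scaled to transcript length and library size, so they can be compared between genes. The WT and KO levels of Cd68 were 1030 and 994 FPKM, and those of Adgre1 247 and 269 FPKM. Fcgr1 followed with 40.6 and 58.4 FPKM and Fcgr2b with 26.2 and 22.8 FPKM. Ccr2 had 3.63 and 6.12 FPKM and Csf1 1.94 and 3.14 FPKM. The order of the genes was the same in both genotypes. No level was listed for Fcgr3, Fcgr4, Csf1r or Cx3cr1. In bulk RNA, a change in the number of cells that express a gene and a change in RNA per cell cannot be told apart.

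Of the 6 members 4 had a higher input level in KO, beside 69.0% of all listed genes, and the larger differences were among these. On the scale of log2(FPKM + 1), KO minus WT was 0.62 for Ccr2, 0.51 for Fcgr1 and 0.49 for Csf1, which lay at the 98.9th, 98.3rd and 98.2nd percentiles of the 3679 genes with a listed level of at least 1 FPKM. Differences were 0.13 for Adgre1, -0.05 for Cd68 and -0.19 for Fcgr2b, the last at the 5.9th percentile. An absolute difference of at least 0.5 was found for 2 of the 6 members, Fcgr1 and Ccr2, beside 2.91% of all listed genes. Both counts depend on the 1 FPKM added. The authors' own log2 ratios of input were 0.75 for Ccr2, 0.69 for Csf1 and 0.52 for Fcgr1. They were 0.13 for Adgre1, -0.05 for Cd68 and -0.20 for Fcgr2b. By these ratios Csf1 also passed 0.5 and stood above Fcgr1. The median over the 6 members was 0.31, and that of all listed genes 0.07 (quartiles -0.02 and 0.17). The authors' deposited table gives an adjusted p of 1.0 for the input difference of each of the 6 genes, and a smallest adjusted p of 0.562 for any listed gene. Fcgr1 and Ccr2 thus combined a higher input level with a lower peak ratio, Csf1 a higher input level with higher ratios, and Fcgr2b a lower input level with lower ratios.

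**Figure D4:**
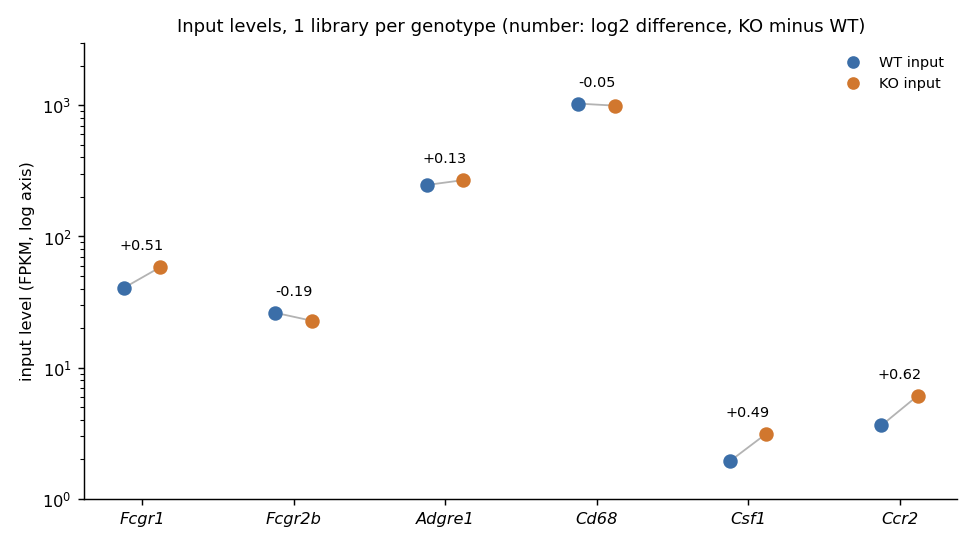
Input level in FPKM (log axis) of the 6 members with a listed level, 1 WT library (blue) and 1 KO library (orange) per gene, joined by a line. The number above each pair is the difference KO minus WT on the scale of log2(FPKM + 1); Ccr2 (0.62), Fcgr1 (0.51) and Csf1 (0.49) stand higher in KO, while Cd68 (-0.05) and Adgre1 (0.13) differ least.

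Across the whole of the authors' deposited table the direction of peaks varied with the input level of the gene they were named for. Of its 5569 peaks whose named gene is in RefSeq, 81.4% had most exonic bases in that gene. The peak named Cd68, which lay in Eif4a1, was thus classed by the level of Cd68. Among 67 peaks named for genes at least as abundant as Adgre1 (mean of both inputs 258 FPKM), 13.4% were lower in KO. Among 533 peaks at or above the mean of Fcgr1, 49.5 FPKM, 31.7% were lower. Among 1528 peaks named for genes with a mean from 1 FPKM to that of Ccr2, 4.88, 83.6% were lower. Adgre1 and Ccr2 thus stood on the commoner side of their class, and Fcgr1 and Csf1 on the rarer side.

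Partners of these receptors were described from 4 lists. Their counts of genes with a WT or KO peak stand beside 16709 WT and 21031 KO peaks in the whole lists. Of 26 genes of Fc receptor signalling, 16 had a WT peak and 20 a KO peak, and 15 had differential peaks. The authors' deposited table has 13 of these peaks lower and 14 higher, with a median of 0.14, so 48.1% were lower, beside 69.6% of all its peaks. Only 22 of the 27 lay in the gene they are named for, and among these 12 were lower and 10 higher, with a median of -0.23, so the sign of the median turned. Fcer1g, the common gamma chain that Fcgr1, Fcgr3 and Fcgr4 need, stood at 0.18 in the authors' deposited table, with input levels of 518 FPKM in WT and 558 in KO. Syk, the kinase recruited by that chain, had 3 lower peaks in the authors' deposited table, the lowest at -0.42, and 1 higher, at 0.41. Inpp5d, the lipid phosphatase recruited by the inhibitory receptor, stood at -0.57, and the B cell linker Blnk at 0.98, in the authors' deposited table. The largest ratios named for this list, -1.23 for Lat2 and 1.04 for Ptpn6, belonged to peaks that lay in Eif4h and Grcc10; the peak within Ptpn6 stood at 0.46 in the authors' deposited table. The largest input differences were those of Pirb, an inhibitory receptor (51.7 FPKM in WT, 69.3 in KO, 0.42 on the log2 scale), Pik3r1, a subunit of phosphoinositide 3-kinase (8.20 and 10.4 FPKM, 0.31), and Lat2, an adaptor (93.2 and 75.4 FPKM, -0.30).

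Of 22 genes of CSF1 receptor signalling and the factors of its lineage, 16 had a WT peak and 19 a KO peak. Their 17 differential peaks lay in 13 genes, and the authors' deposited table has 7 of them lower (41.2%, beside 69.6% of all its peaks) and 10 higher, with a median of 0.32. Among the 15 that lay in the named gene 7 were lower and 8 higher, with a median of 0.13. In the authors' deposited table the transcription factor Runx1 stood at -1.03, Spi1 at -0.68, Irf8 at -0.43 and Cebpa at -0.34. Among the signalling genes, the authors' deposited table has Stat3 at 0.73 and the kinase Akt1 at 0.64, although the false discovery rate of the Stat3 peak was above 0.05. The largest input differences were 0.31 for Runx1 (5.59 FPKM in WT, 7.17 in KO), -0.27 for Mapk3 (87.7 and 72.7) and 0.19 for Adam17, a protease that sheds surface proteins (38.2 and 43.6). The first 2 lists share Cbl and Ptpn6.

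Of 12 ligands, receptors and coupling proteins around Ccr2 and Cx3cr1, 6 had a WT peak and 7 a KO peak. The authors' deposited table holds 5 differential peaks for them, 3 higher and 2 lower (40.0%, beside 69.6% of all its peaks). In the authors' deposited table Gnai2, a G protein subunit, stood at 0.62 and 0.19, Arrb2, an arrestin, at 0.52, and the receptor Cxcr4 at -0.24. WT and KO input levels were 113 and 149 FPKM for Cxcr4 and 45.3 and 57.0 FPKM for Arrb2. Of 17 other surface and granule markers, 13 had a WT peak and 12 a KO peak, and the authors' deposited table has 7 lower and 3 higher peaks for them, with a median of -0.28. Their share of lower peaks, 70.0%, was near the 69.6% of the whole table. The sialic acid receptor Siglec1 stood at -0.86, the adhesion receptor Adgrl2 at -0.79, and Sirpa, which is also in the Fc receptor list, between -0.36 and 0.62 in the authors' deposited table. WT and KO input levels were 153 and 198 FPKM for Cd14 and 10.5 and 13.6 FPKM for Siglec1.

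An input level was listed for 6 of 9 macrophage markers, summing to 12100 FPKM in WT and 8240 in KO, and a few markers of other cells differed between the inputs. Most of that sum was the lysozyme gene Lyz2, the locus of the Cre, with WT and KO levels of 10500 and 6620 FPKM. The lower sum in KO was that of Lyz2 and not of the markers in general. On the log2 scale, KO minus WT was 0.51 for Fcgr1, 0.37 for Cd14, 0.16 for Spi1, 0.13 for Adgre1 and -0.05 for Cd68. Of 9 neutrophil markers, 2 had a listed level, S100a8 (77.7 FPKM in WT, 46.4 in KO) and S100a9 (155 and 90.2), summing to 233 and 137 FPKM. The dendritic cell marker Itgax, which macrophages also express, stood at 71.9 and 46.7 FPKM. By name, 4 of the 9 neutrophil markers had a WT peak and 3 a KO peak, and of 7 dendritic cell markers 3 and 3. By position, 4 markers of each of these lists had a KO peak. By name, no peak was listed for any of 7 T and NK cell markers or 4 erythroid markers, and 1 of 6 B cell and 1 of 5 mast cell and basophil markers had a peak in each genotype. Of 5 stromal markers 2 had a WT peak and 3 a KO peak, and of 5 osteoclast markers 2 and 4. By position, 3 stromal markers had a WT peak and 4 a KO peak, the peaks in Pdgfrb included, and 1 T and NK cell marker had a WT peak. The WT peak in Pdgfrb had a false discovery rate of 0.104. The part of other cells in the members' values was not tested. The level of Mettl3 was not analysed here.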

How the data were processed

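Libraries of m6A-precipitated and input RNA from WT and KO macrophages, 1 of each, were grouped by the sample titles. Per the submitters' processing notes, fastp, HISAT2, HOMER, ChIPseeker, StringTie and edgeR were used with build mm10, without a stated role, and the sources used here name no peak caller. Each peak in the 2 deposited lists has a fold enrichment (IP divided by input), which is a ratio, and a p-value no higher than 0.05. The authors also deposited a table with log2 ratios of KO over WT enrichment, p-values and false discovery rates for 6050 peaks with a p under that limit. The same table has the authors' input levels in FPKM, with none for 370 peaks. Nothing was pooled, and 1 library per group allowed no test.

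Members were found by gene symbol, and also by overlap of exonic blocks with RefSeq extents (GRCm38), which was added after the data were seen. Overlap needed at least 1 base and ignored strand, since the only strand listed is that of the named gene. The overlap procedure was tested on simulated data. Starts are printed counted from 1, since the last block of every peak ends at its listed end when starts are counted from 0. Input differences used log2(FPKM + 1), which understates differences at low levels, wherever the 2 inputs averaged 1 FPKM or more. Related genes named are the 3 with the largest peak ratio and the 3 with the largest input difference in each list, and Fcer1g, Syk, Inpp5d and the other examples were chosen after their values were seen. A few genes of these lists are not reported here by name. The members and lists were chosen with earlier results of these data known. Apart from 30 bases at the Fcgr2b start, taken from the RefSeq promoter table, the sequence under the peaks was not used here. Python 3.11.15, numpy 2.4.6, pandas 2.3.3 and matplotlib 3.10.9 were used.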

Additional observations from a re-analysis of the deposited data

How the results depend on the processing

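Of 32 alternatives to 14 results, 22 left a count or a list's median within 1.5 times its value, or the members' median input difference within 1 SD, 9 moved it further, and 1 reversed a sign. With only peaks in the named gene, chosen after seeing the data, the median log2 ratio of the Fc receptor signalling list went from 0.14 to -0.23, and that of the CSF1 receptor list from 0.32 to 0.13, as 5 and 2 peaks were left out. With at least 4-fold enrichment, 4 WT and 7 KO peaks named for the members were left, and 4 WT peaks overlapped a KO peak. At a peak p of 1e-10 or lower, 5 WT and 6 KO peaks were left. In the RefSeq extent of the named gene lay 9 of the 14 KO peaks. With an absolute log2 ratio of at least 0.5 in the authors' deposited table, 2 differential peaks were lower and 2 higher. The median input difference of the members ranged from 0.24 to 0.32. No paired analysis was possible because each group had 1 library.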

Other observations

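The naming of peaks seen in Cx3cr1, Csf1r, Cd68 and Fcgr4 was counted over the whole lists. Among peaks whose named gene is in RefSeq, most exonic bases lay in that gene for 81.6% of 15301 WT peaks and 79.7% of 19201 KO peaks, and for 81.4% of 5569 peaks of the authors' deposited table. Overlap with the named gene misses cases like the Cx3cr1 peak: 223 WT and 240 KO peaks touched the gene they were named for and had most of their bases in another. A further 2217 WT and 3162 KO peaks did not touch it and lay mostly in another gene. Strong peaks were among them. Of 843 WT peaks with an enrichment of at least 20, 124 had most of their bases in a gene other than the one named, and of 593 such KO peaks 75 did.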
